A study of Danio rerio with 6 samples.

Results

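Voltage-gated calcium, potassium and sodium channel genes were compared between wild-type (WT) zebrafish embryos and embryos the labels call 3etv, mutants for 3 genes of the Pea3 family of ETS transcription factors. Members were the genes whose symbol begins with cacna, cacnb, cacng, kcn, or scn followed by a digit, with 10 or more counts summed over the 6 libraries. The rule gave 135 members of 174 genes with such symbols, in a table of 32057 genes. Of these, 42 belonged to calcium channels, 81 to potassium channels and 12 to sodium channels. The symbols kcnj (inward rectifier) and kcnk (tandem-pore leak) name potassium channels that lack a voltage sensor, and cacng includes partners of glutamate receptors, so the set is wider than channels gated by voltage. Members closest to the count limit were kcnk12l and kcnq3 inside it, each with 10 counts, and kcnk18, kcnh3 and kcnj10a outside it, each with 9.

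Each library was made from polyadenylated RNA of a single whole embryo at 10 somites, a stage named by the blocks of trunk mesoderm formed so far, with 3 embryos of genotype WT and 3 of genotype 3etv. Neither the identity of the mutated Pea3 genes nor the alleles, the strain or the parents of the embryos are given, and any effect of clutch or line cannot be told apart from that of genotype. The Pea3 factors act downstream of fibroblast growth factor (FGF) signalling. Gene counts totalled between 22446699 and 28841169 in WT and between 18484238 and 21865288 in 3etv, so each 3etv library was shallower than each WT library. The family gene etv5b had 193 to 210 CPM (gene counts scaled to a fixed library total, with TMM factors) in WT and 54.7 to 69.2 in 3etv. For etv5a the ranges were 74.9 to 78.4 and 25.4 to 28.6, and for etv1 1.08 to 1.65 and 0.442 to 0.642. Each of these was lower in each 3etv embryo. So was etv4, at 86 to 89.8 CPM in WT and 45.9 to 77.7 in 3etv, but it did not pass the threshold (log2 fold change -0.52, SE 0.17, edgeR adjusted p 0.057).

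Voltage-gated channels open in response to a change in membrane potential. The pore is formed by a single large alpha protein in calcium and sodium channels, and by several separate proteins in potassium channels. Auxiliary subunits set how many channels reach the membrane and how fast they open and close. At somite stages, calcium and sodium channels are best known from the first neurons and the forming muscle, where the muscle calcium channel is the voltage sensor of contraction, whereas inward rectifier and leak channels set the resting potential of many cell types.

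Of the 135 members, 77 had enough counts to be tested, and 21 of these differed between 3etv and WT at an adjusted p under 0.05 in edgeR, 10 higher and 11 lower in 3etv. That is 27.3% of the tested members, against 31.3% of all 18533 tested genes. The members' median log2 fold change was 0.082, and that of all tested genes was 0.0035. For 35 of the 77 the CPM ranges of both genotypes were separate, 18 lower and 17 higher in 3etv, against 45.1% of all tested genes. The share called was lower among the members than among all tested genes, and the share with separate ranges was about level with theirs. The members were also weakly expressed, with a median of 1.38 CPM and a median SE of 0.31 log2 units, where all tested genes had medians of 9.76 CPM and 0.14. Of the 77 tested members, 17 passed with a difference of at least 1 log2 unit, 10 lower and 7 higher in 3etv. Such genes were 10.2% of all tested genes, 4.8% lower and 5.35% higher, a smaller share than among the members. A gene with a larger SE passes only at a larger fold change, and the part of this in the members' share was not tested. By direction alone, 15.9% of all tested genes were higher and 15.4% lower.

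In whole embryos, fewer cells of a type and less RNA per cell cannot be told apart. Markers of several tissues differed between the groups, as did 31.3% of all tested genes, 15.9% higher and 15.4% lower in 3etv. Of 14 skeletal muscle markers, 11 were lower and 1 was higher in 3etv, and their summed level was 1474 to 1737 CPM in WT and 1011 to 1205 in 3etv. Of 15 tested early neuron markers, 6 were lower, among them elavl4 (log2 fold change -1.13, SE 0.19, edgeR adjusted p 0.00059), and 1 was higher; the sum was 381 to 397 CPM in WT and 324 to 355 in 3etv. Heart field markers had 4 of 7 tested higher and none lower (summed 46.4 to 61.2 CPM in WT and 69.9 to 85.4 in 3etv). The 4 were gata4, gata5, gata6 and tbx5a, and the sum was led by gata6 (mean 12.5 CPM in WT and 26.7 in 3etv) and gata5 (16.6 and 24.4). Log2 fold changes of nkx2.5 and tnnt2a were both -0.43 (edgeR adjusted p 0.24 and 0.27). The late heart marker myl7 was too low to test, at 0.16 ± 0.10 CPM in WT and 0.10 ± 0.11 in 3etv (SD, n = 3 each). Among ionocyte and pronephros markers 4 of 8 were lower (summed 134 to 152 CPM in WT and 125 to 131 in 3etv), and among neural crest markers 3 of 6 (439 to 462 against 325 to 404). All 4 maternal or germ cell markers were higher (5.67 to 7.9 against 23.6 to 25.6). Each of these sums was separate between the genotypes, and no listed marker was at 0 in all 6 libraries. The part of these differences in the channel results was not tested.

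**Figure D1:**
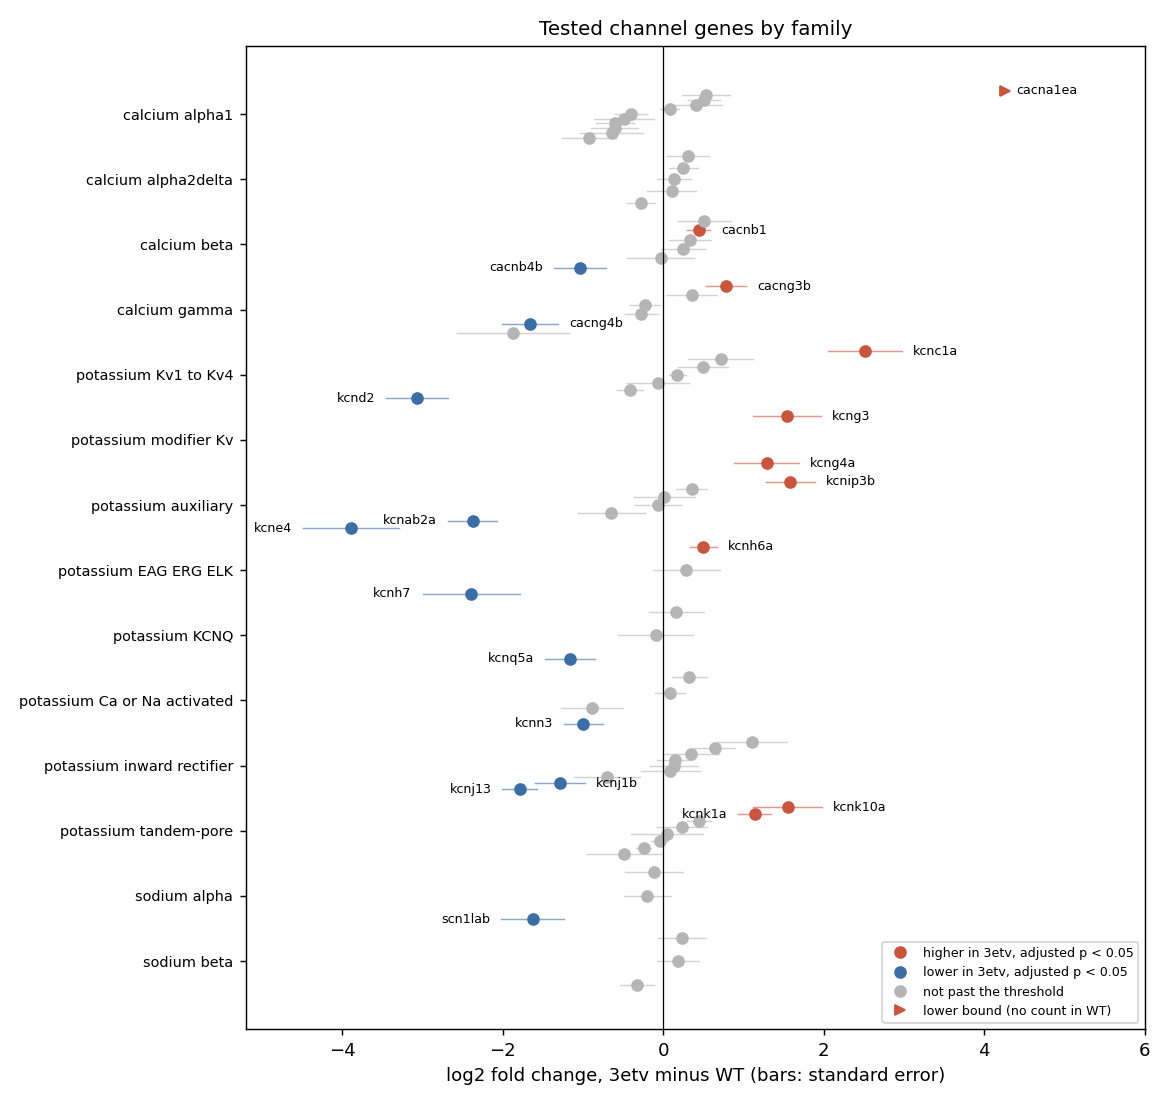
Log2 fold change (3etv minus WT) of the 77 tested channel genes, 1 row of points per family, with the standard error as a bar. Red marks the 10 genes higher and blue the 11 lower in 3etv at an adjusted p under 0.05; the triangle is the lower bound for cacna1ea, which had no count in WT. Most families hold points on both sides of 0.

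Calcium channels were examined by subunit. Of 42 members 28 were tested, and 5 passed the threshold, 3 higher and 2 lower in 3etv. That is 17.9%, against 31.3% of all tested genes. The number of calcium calls was 2 to 8 without 1 embryo. It was 3 in DESeq2 and 3 with the replicate block, and in each of these 2 were among the 5. The alpha1 proteins form the pore. Of 19 alpha1 members, 11 were tested and 1 differed. That gene was cacna1ea (ENSDARG00000062346), a copy of the gene for the R-type pore protein found in neurons and endocrine cells. It had no count in any of the 3 WT libraries, and 31, 62 and 42 counts in the 3etv embryos, equal to 1.66, 2.85 and 2.32 CPM. All 3etv embryos thus had the transcript and no WT embryo had a read of it. Against a floor of 3 counts per WT library it was at least 19.2-fold higher in 3etv (edgeR adjusted p 8.91e-06). It had enough counts to be tested through the 3etv libraries alone, so this p-value is no support apart from the counts. Its duplicate cacna1eb was read in both groups, with 14, 32 and 39 counts in WT and 18, 13 and 10 in 3etv, ranges that overlapped in CPM (edgeR adjusted p 0.24).

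The other 10 tested alpha1 genes did not pass. The one with the highest mean CPM, cacna1ha (ENSDARG00000060496), a T-type channel that opens at small depolarisations, had 12.5, 13 and 15 CPM in WT and 16.2, 14 and 12.6 in 3etv (log2 fold change 0.08, SE 0.12, edgeR adjusted p 0.64). Its groups overlapped. The pore genes of muscle were lower on average in 3etv without passing. For cacna1sb (ENSDARG00000042552), a copy of the skeletal muscle voltage sensor gene, WT embryos had 1.43, 2.05 and 2.91 CPM and 3etv embryos 1.61, 1.06 and 0.72, and the log2 fold change was -0.92 (SE 0.34, edgeR adjusted p 0.053). One 3etv embryo lay within the WT range. Over the fits without 1 embryo the edgeR adjusted p ran from 0.0154 to 0.219, and it was 0.113 with the replicate block. cacna1c (ENSDARG00000008398), the L-type channel of the heart, had 1.38, 1.98 and 1.56 CPM in WT and 1.23, 0.78 and 1.27 in 3etv; the groups did not overlap, but the log2 fold change of -0.60 (SE 0.29) gave an edgeR adjusted p of 0.14. cacna1sa was too low to test, with 11 counts in WT and 5 in 3etv.

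The alpha2delta subunits sit outside the membrane and aid trafficking of the pore. None of the 5 tested among 6 members passed in edgeR; none had an unadjusted p under 0.05. Their log2 fold changes ran from -0.28 to 0.31, and the most counted, an entry of cacna2d4a (ENSDARG00000026855), had 0.25 (SE 0.18, edgeR adjusted p 0.32). The gene cacna2d4a had separate entries under 1 symbol. Summed over both, it had 183, 232 and 179 counts in WT and 159, 228 and 138 in 3etv. Entries that share a symbol, here also those of cacna1db and kcnj11l, may split reads of near-identical copies, so their single values are uncertain.

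The beta subunits bind the pore protein from inside the cell and help carry it to the membrane. Of 6 tested among 7 members, 1 was higher and 1 lower. cacnb1 (ENSDARG00000002167), the beta subunit of skeletal muscle, without which zebrafish embryos are paralysed, had 5.04, 5.85 and 4.71 CPM in WT and 6.59, 7.27 and 7.40 in 3etv. All 3etv embryos lay above all WT embryos, a log2 fold change of 0.44 (edgeR adjusted p 0.032, SE 0.14). The call was lost in 6 of 12 alternatives (adjusted p 0.0309 to 0.118 over all 12), among them DESeq2 (0.0624), the replicate block in edgeR (0.0652) and edgeR fits without any 1 of 4 embryos. Of the 14 skeletal muscle markers, 11 were lower, 1, acta1b, was higher (log2 fold change 0.53, SE 0.11, edgeR adjusted p 0.0039), and 2 did not pass.

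cacnb4b (ENSDARG00000062174), one of a pair of copies of the beta subunit gene best known from brain, had 24, 48 and 39 counts in WT and 13, 19 and 9 in 3etv. In CPM these were 1.07, 1.64 and 1.56 against 0.70, 0.87 and 0.50, with each 3etv embryo below each WT embryo. The log2 fold change was -1.04 (SE 0.33, edgeR adjusted p 0.028). Its duplicate cacnb4a had 18, 16 and 14 counts in WT and 18, 11 and 7 in 3etv, which overlapped in CPM (edgeR adjusted p 0.96). In the RefSeq gene order of zebrafish assembly GRCz12tu, which is not the build of the counts, cacnb4b is one of the tested genes on either side of etv5b, the Pea3 gene with the largest fall here. The gene on the other side, ptprnb, was also lower (log2 fold change -0.53, SE 0.16, edgeR adjusted p 0.023). Of the 75 tested members with a place in that order, it was the only one beside etv1, etv4, etv5a or etv5b. The T-type pore gene cacna1g lies 3 tested genes from etv4 and did not pass (log2 fold change -0.60, SE 0.24, edgeR adjusted p 0.072). The part of position in the level of cacnb4b was not tested. The call of cacnb4b was lost in 6 of 11 alternatives, with edgeR adjusted p-values of 0.064 to 0.11 without either of 2 WT embryos or either of 2 3etv embryos. Its direction was the same in each. The heart beta genes cacnb2a and cacnb2b did not pass (log2 fold changes 0.51 and 0.25, edgeR adjusted p 0.27 and 0.52).

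The genes named cacng include a subunit of the muscle calcium channel and proteins that escort AMPA-type glutamate receptors. Of 6 tested among 10 members, 1 was higher and 1 lower. cacng4b (ENSDARG00000074669), of the receptor-escorting kind, had 2.05, 1.23 and 1.32 CPM in WT and 0.54, 0.46 and 0.44 in 3etv, with no overlap and a log2 fold change of -1.66 (edgeR adjusted p 0.0029, SE 0.35). cacng3b, another escort protein gene, named here after its value was seen, rose by 0.78 on the log2 scale (SE 0.25, edgeR adjusted p 0.031), a call lost in 6 of 11 alternatives, including DESeq2 and the replicate block (adjusted p 0.0297 to 0.106 over all 11). The member of this family with the highest mean CPM, cacng6a, had 3.15 to 4.06 CPM in WT and 2.93 to 3.11 in 3etv; the ranges did not overlap, and the edgeR adjusted p was 0.39.

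Among potassium channels 43 of 81 members were tested, and 15 passed (34.9%), 7 higher and 8 lower in 3etv. Of all tested genes 31.3% passed, 15.9% higher and 15.4% lower, so the potassium share was close to theirs. The family counts below rest on 2 to 9 tested genes each and are to be read beside these shares. The genes kcna, kcnb, kcnc and kcnd encode the pore proteins of the classic voltage-gated families Kv1 to Kv4. Of 7 tested among 15 such members, 1 was lower and 1 higher. kcnd2 (ENSDARG00000032799), whose channel carries the fast A-type current of neuronal dendrites and heart in mammals, had 55, 44 and 66 counts in WT and 6, 6 and 3 in 3etv. The WT embryos ranged from 1.51 to 2.63 CPM and the 3etv embryos from 0.17 to 0.32, a log2 fold change of -3.07 (edgeR adjusted p 7.08e-05, SE 0.39). kcnc1a (ENSDARG00000051852), of a family that lets neurons fire at high rates, moved the other way, with 6, 5 and 3 counts in WT and 20, 15 and 27 in 3etv. Its 3etv range of 0.69 to 1.49 CPM lay above the WT range of 0.12 to 0.27, and the log2 fold change was 2.51 (SE 0.47, edgeR adjusted p 0.0013). The related kcnc2 (ENSDARG00000057468), with the highest mean CPM in the family, had 11.3 to 12.4 CPM in WT and 12.6 to 14.7 in 3etv, a log2 fold change of 0.18 (SE 0.11) that did not pass (edgeR adjusted p 0.23).

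The modifier genes kcng, kcnf, kcns and kcnv encode proteins that make no channel alone and alter the channels of the kcnb family when they join them. Only 2 of 8 members had enough counts to be tested, and both were higher in 3etv. Of all tested genes 15.9% were higher, and 2 genes are too few for a share to set beside that. kcng3 (ENSDARG00000061622) had 7 counts in each WT library and 15, 12 and 20 in 3etv (log2 fold change 1.54, SE 0.42, edgeR adjusted p 0.014). kcng4a (ENSDARG00000062967) had 0.49, 0.75 and 0.24 CPM in WT and 1.66, 1.01 and 1.05 in 3etv (log2 fold change 1.29, SE 0.41, edgeR adjusted p 0.029). Neither gene's groups overlapped, but each rested on few counts. The call of kcng3 was lost without 1 WT embryo or 1 3etv embryo (edgeR adjusted p 0.058 and 0.070), and that of kcng4a without any 1 of 3 embryos (0.051 to 0.12). The untested duplicate kcng4b, named after its values were seen, had 5, 11 and 21 counts in WT and 3, 4 and 2 in 3etv. Its CPM was lower in each 3etv embryo. Mean CPM of the untested kcnf1a and kcng2 was also lower in 3etv, and that of kcns3a, kcnv2a and kcnv2b was higher.

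Auxiliary potassium channel subunits gave some of the largest falls. Of 7 tested among 9 members, 2 were lower and 1 higher. kcne4 (ENSDARG00000068257), a small membrane protein that in mammals inhibits several potassium channels, had 32, 27 and 24 counts in WT and 2, 0 and 2 in 3etv. Nearly all its reads were in WT. The ratio of WT to 3etv, scaled for depth, was 15.8, with an exact 95% counting interval of 5.96 to 59.5 (edgeR adjusted p 0.000328). kcnab2a (ENSDARG00000087247), a cytoplasmic beta subunit of the Kv1 channels with an enzyme-like fold, had 216, 137 and 128 counts in WT and 23, 23 and 26 in 3etv. One WT embryo, at 9.63 CPM, was well above the other WT values of 4.69 and 5.11, but every WT embryo exceeded the 3etv range of 1.06 to 1.44. The log2 fold change was -2.38 (SE 0.31, edgeR adjusted p 0.000151). kcnip3b (ENSDARG00000017880), a calcium-binding partner of the Kv4 channels, had 0.98, 0.58 and 0.52 CPM in WT and 1.93, 2.16 and 2.10 in 3etv, a rise of 1.59 on the log2 scale (SE 0.30, edgeR adjusted p 0.0016). kcnip3b and kcnd2, a Kv4 pore gene, thus moved in opposite directions.

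**Figure D2:**
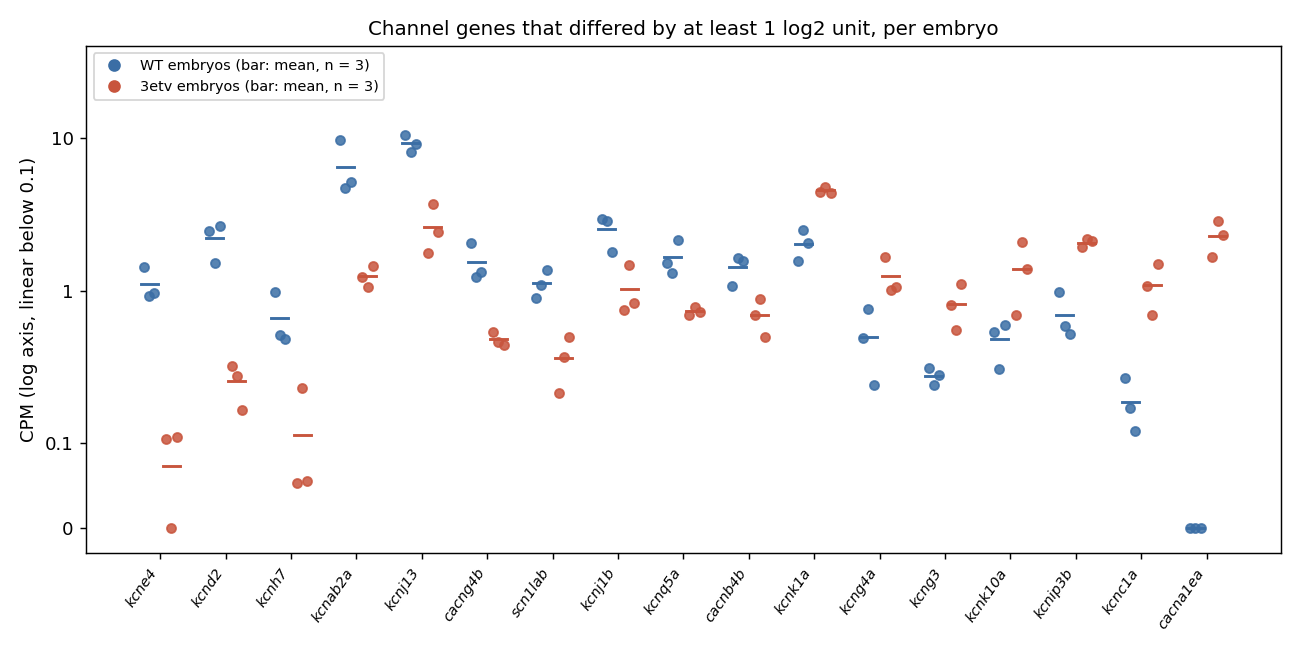
CPM per embryo for the 17 channel genes that differed at an adjusted p under 0.05 by at least 1 log2 unit, ordered from the largest fall to the largest rise; dots are embryos (3 WT in blue, 3 3etv in red) and bars are group means, on a log axis that is linear below 0.1 CPM. The groups overlap for none of these genes, and cacna1ea is at 0 in all 3 WT embryos. The genes were chosen by p-value and size in these same embryos, so their separation is no added support.

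The EAG, ERG and ELK families, named kcnh, include the channel that repolarises the heart. Of 10 members only 3 could be tested. kcnh7 (ENSDARG00000062687), of the ERG group and found in neurons, had 22, 15 and 12 counts in WT and 1, 5 and 1 in 3etv, a log2 fold change of -2.39 (edgeR adjusted p 0.0090, SE 0.61). kcnh6a (ENSDARG00000001803), the zebrafish heart ERG channel, had 3.43, 3.93 and 3.19 CPM in WT and 5.30, 4.28 and 5.47 in 3etv, and was higher by 0.50 on the log2 scale (SE 0.17, edgeR adjusted p 0.042). The groups of neither gene overlapped. Of 12 alternatives, 8 lost the call of kcnh6a (adjusted p 0.035 to 0.134 over all 12), among them edgeR fits without any 1 of 5 embryos (0.054 to 0.134). Of 7 tested heart field markers 4 were higher in 3etv, as given above, and the other 3, among them nkx2.5 and tnnt2a, did not pass.

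The KCNQ channels carry a slow current that damps firing in neurons. Of 6 members 3 were tested and 1 differed. kcnq5a (ENSDARG00000069954) had 1.52, 1.30 and 2.16 CPM in WT and 0.70, 0.78 and 0.72 in 3etv, with no overlap. Its log2 fold change was -1.17 (SE 0.31, edgeR adjusted p 0.012), and the call was lost without 1 WT embryo (edgeR adjusted p 0.065). kcnq1.1, a copy of the heart KCNQ gene, had 20, 12 and 8 counts in WT and 11, 11 and 7 in 3etv, which overlapped in CPM.

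Of 4 tested channels opened by calcium or sodium inside the cell, out of 7 members, 1 differed. kcnn3 (ENSDARG00000019753), a small-conductance calcium-activated channel, had 4.28, 3.18 and 4.71 CPM in WT and 2.68, 1.61 and 1.82 in 3etv, a fall of 0.99 on the log2 scale (SE 0.24, edgeR adjusted p 0.0065). Each 3etv embryo was below each WT embryo. The related kcnn1a, at 3.63 to 4.48 CPM in WT and 3.63 to 5.19 in 3etv, overlapped between groups (edgeR adjusted p 0.78).

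Inward rectifiers pass potassium best near rest. Of 13 members 9 were tested, and 2 were lower in 3etv. kcnj13 (ENSDARG00000043443), known in zebrafish for its part in the stripes of the adult skin, had 233, 237 and 228 counts in WT and 33, 80 and 44 in 3etv. In CPM it ranged from 8.11 to 10.4 in WT and from 1.77 to 3.68 in 3etv, a log2 fold change of -1.79 (edgeR adjusted p 6.35e-05, SE 0.22). kcnj1b (ENSDARG00000002666), of the ROMK type that secretes potassium in the mammalian kidney, had 2.94, 2.84 and 1.80 CPM in WT and 0.75, 1.47 and 0.83 in 3etv, a log2 fold change of -1.29 (edgeR adjusted p 0.0066, SE 0.31). Neither gene's groups overlapped. A ROMK-type relative, kcnj1a.1, was higher in each 3etv embryo than in any WT embryo, 0.54 to 1.16 against 0.28 to 0.45 CPM, without passing (log2 fold change 1.1, SE 0.44, edgeR adjusted p 0.071). The ionocyte regulator foxi3a was among the ionocyte and pronephros markers that fell (log2 fold change -0.95, SE 0.18, edgeR adjusted p 0.0016). The other 4 of 8 did not pass, among them foxi3b (0.05, SE 0.18, edgeR adjusted p 0.86) and pax8 (0.34, SE 0.12, edgeR adjusted p 0.051). The part of ionocyte and pronephros cells in these values was not tested. kcnj2a, known from muscle and heart, overlapped between groups (log2 fold change -0.70, SE 0.41, edgeR adjusted p 0.22).

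Tandem-pore channels carry the leak current. Of 13 members 8 were tested, and 2 were higher in 3etv. kcnk1a (ENSDARG00000045067) had 1.56, 2.5 and 2.04 CPM in WT and 4.44, 4.78 and 4.37 in 3etv, a log2 fold change of 1.14 (edgeR adjusted p 0.0010, SE 0.21). kcnk10a (ENSDARG00000062849), related to channels opened by stretch and lipids, had 0.54, 0.31 and 0.60 CPM in WT and 0.70, 2.07 and 1.38 in 3etv, a log2 fold change of 1.55 (edgeR adjusted p 0.014, SE 0.43). Neither gene's groups overlapped, though the lowest 3etv value of kcnk10a was close to the WT range, and its call was lost without 1 WT embryo or 1 3etv embryo (edgeR adjusted p 0.064 and 0.11). kcnk6 (ENSDARG00000007383) took more counts than any other member, from 1025 to 1751 per library. Its CPM was 52.9, 40.7 and 53.3 in WT and 54.9, 80.5 and 64.6 in 3etv. The groups did not overlap, and the log2 fold change of 0.45 (SE 0.15) fell short in edgeR (adjusted p 0.057) and passed in DESeq2 (adjusted p 0.0039) and in edgeR without 1 of the 3etv embryos (adjusted p 0.00845).

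Sodium channels were the smallest group, with 6 of 12 members tested and 1 called (16.7%, against 31.3% of all tested genes). scn1lab (ENSDARG00000062744), a copy of the brain sodium channel gene whose loss causes seizures in zebrafish larvae, had 20, 32 and 34 counts in WT and 4, 8 and 9 in 3etv. In CPM these were 0.89 to 1.36 against 0.21 to 0.50, with no overlap and a log2 fold change of -1.62 (edgeR adjusted p 0.0067, SE 0.39). In the GRCz12tu gene order scn1lab and kcnh7, both lower in 3etv, lie 2 tested genes apart. Among the 75 placed members, 2 other pairs lay as close, cacna2d3 with cacna1da and cacna2d4a with cacna1c, and none of those 4 genes was called. scn8aa, the sodium channel needed for the touch response of zebrafish sensory neurons, overlapped between groups, at 1.20 to 1.68 CPM in WT and 0.92 to 1.45 in 3etv (log2 fold change -0.20, SE 0.29, edgeR adjusted p 0.64). Of the beta subunits, which anchor and tune the pore, none of the 3 tested passed in edgeR, and none had an unadjusted p under 0.05; scn1ba, with the highest mean CPM, had a log2 fold change of -0.33 (edgeR adjusted p 0.26, SE 0.21). The muscle channel scn4ab and the heart channel scn5lab were too low to test, with 22 and 15 counts in WT and 12 and 18 in 3etv.

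Only 2 members were nearly absent in one group, defined as at most 3 counts in each of its libraries and at least 10 in each library of the other. These were cacna1ea, nearly absent in WT, and kcne4, nearly absent in 3etv. Of all tested genes, 0.712% met this definition, 0.264% were nearly absent in WT and 0.448% in 3etv. Such genes pass the low-count filter through the group where they are high, so their p-values are no support apart from the counts. In all, 7 tested members reached the filter level of 0.451 CPM in every library of 1 group and in none of the other. These were cacna1ea, kcnc1a, kcng3 and kcnj1a.1 through 3etv and kcne4, kcnd2 and kcnh7 through WT, and 6 of them were called. The same limit holds for the p-values of all 7, here and where they are given above.

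The other 58 members, with 10 to 62 counts in all, were below the filter. CPM values of the groups did not overlap in 15 of them, 11 lower and 4 higher in 3etv, against 27.5% of all 4550 genes below the filter with 10 or more counts, 13.4% lower and 14.1% higher. Some of these, named after their values were seen, were near zero in one group. kcnh8 had 5, 5 and 12 counts in WT and none in any 3etv embryo, at least 1.88-fold lower in 3etv against a floor of 3 counts per library. kcnj5, part of the channel by which the vagus nerve slows the heart in mammals, had 11, 4 and 16 counts in WT and 0, 1 and 1 in 3etv, a depth-scaled WT to 3etv ratio of 11.8 (exact 95% counting interval 3.01 to 102). kcnh5b had 0, 1 and 2 counts in WT and 6, 5 and 8 in 3etv, a 3etv to WT ratio of 8.30 (2.44 to 43.8). scn1laa, the duplicate of scn1lab, had 2, 1 and 0 counts in WT and 8, 3 and 5 in 3etv, a 3etv to WT ratio of 6.99 (2 to 37.4). These intervals cover counting error alone.

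Summed over members, channel RNA was about level between the genotypes. All members together had 252 to 270 CPM in WT and 261 to 290 in 3etv, with means of 264 ± 10.0 and 273 ± 14.6 (SD, n = 3 each). Calcium channel genes summed to 82.3 ± 2.34 CPM in WT and 88.5 ± 2.12 in 3etv, and sodium channel genes to 10.1 ± 0.44 and 9.17 ± 0.35; neither pair of ranges overlapped. Potassium channel genes summed to 171 ± 10.8 and 176 ± 12.9, which overlapped. Without kcnk6, the potassium sum was 122 ± 4.48 CPM in WT and 109 ± 0.43 in 3etv, with no overlap, so that 1 gene decided the direction of the potassium total. Within potassium channels, the sums of the inward rectifiers (21.1 ± 1.31 against 13.9 ± 1.85 CPM), of the KCNQ genes (3.76 ± 0.37 against 2.36 ± 0.18) and of the auxiliary subunits (15.3 ± 2.89 against 11 ± 0.44) were lower in each 3etv embryo. The sum of the calcium- or sodium-activated genes was also lower in each (11.4 ± 0.22 against 9.56 ± 1.37), by a narrow margin for 1 embryo. Single genes held a large part of each of these falls. In the inward rectifier sum kcnj13 went from a mean of 9.2 CPM in WT to 2.63 in 3etv, while 6 of 9 tested genes had positive log2 fold changes. In the auxiliary sum kcnab2a went from 6.48 to 1.24 CPM, while 3 of 7 tested genes had positive log2 fold changes. In the calcium- or sodium-activated sum kcnn3 went from 4.06 to 2.04 CPM, while 2 of 4 tested genes had positive log2 fold changes. In the KCNQ sum kcnq5a went from 1.66 to 0.732 CPM, and 1 of 3 tested genes had a positive log2 fold change. The EAG, ERG and ELK sum was higher in each 3etv embryo (6.45 ± 0.43 against 7.43 ± 0.51), as were the calcium alpha1 (42.2 ± 4.87 against 47.2 ± 1.03) and calcium beta sums (11.3 ± 0.71 against 13.5 ± 0.71). Margins were narrow for the EAG, ERG and ELK sum, with 6.83 CPM in WT embryo 3 and 6.85 in 3etv embryo 2. They were also narrow for the alpha1 sum, with 46.1 CPM in WT embryo 3 and 46.4 in 3etv embryo 1. The Kv1 to Kv4 sum was 23.8 ± 0.48 and 23.9 ± 0.25, ranges that overlapped. Within that sum the mean level of kcnd2 was 2.2 CPM in WT and 0.254 in 3etv, while kcnc2 went from 11.8 to 13.4 CPM, kcnc1a from 0.186 to 1.08 and kcnd1 from 1.7 to 2.39. These sums are not scaled for gene length, are led by their most counted members and were not tested.

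**Figure D3:**
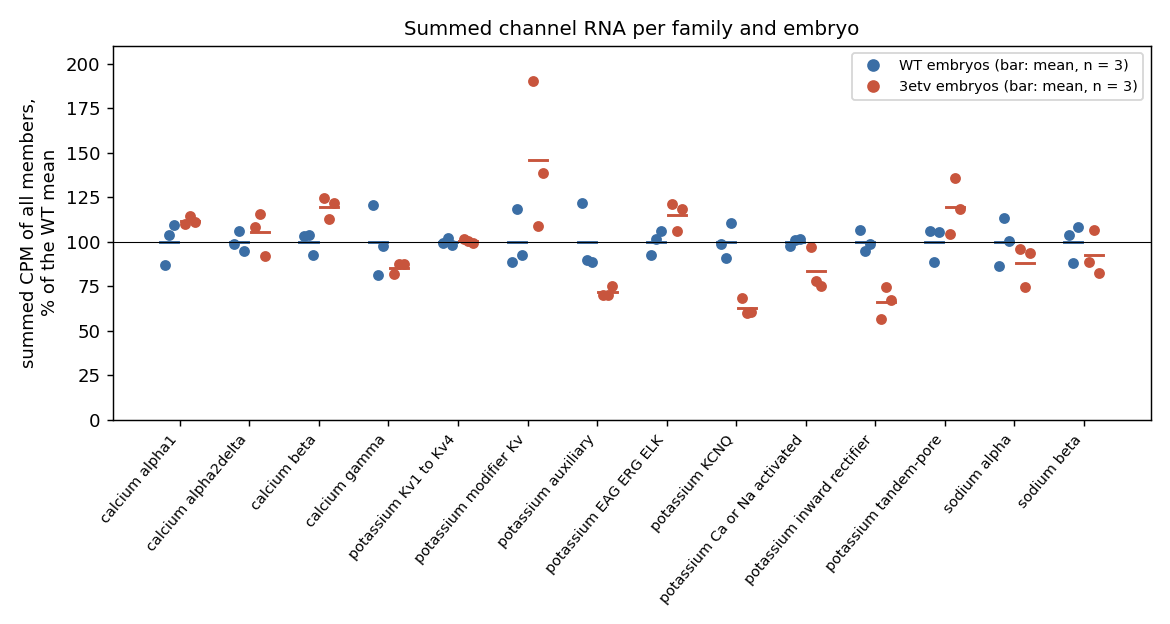
Summed CPM of all 135 members by family in each embryo, as a percentage of the WT mean of that family; dots are embryos (3 WT in blue, 3 3etv in red) and bars are group means. Inward rectifier, KCNQ and auxiliary subunit sums lie below the WT range in all 3 3etv embryos, and the Kv1 to Kv4 sums coincide.

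Zebrafish keep many channel genes as duplicates whose symbols end in a and b. For 11 such pairs both copies were tested. In 4 pairs 1 copy passed and the other did not, in 7 pairs neither passed, and in 0 pairs did both. Taken singly, 27.3% of tested members and 31.3% of all tested genes passed. No share for pairs over all genes was computed, so these counts are not read as a result about duplicates. The 4 were cacna1ea with cacna1eb, cacnb4b with cacnb4a, kcnab2a with kcnab2b, and kcnk1a with kcnk1b. For kcnab2b the log2 fold change was -0.65 (SE 0.42, edgeR adjusted p 0.26), beside -2.38 for kcnab2a. For kcnk1b it was 0.24 (SE 0.31, edgeR adjusted p 0.60), beside 1.14 for kcnk1a. The difference between copies was not tested, and a copy that misses the threshold is not shown to be unchanged. Reads that fit both copies of a pair could not be followed in the counts.

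**Figure D4:**
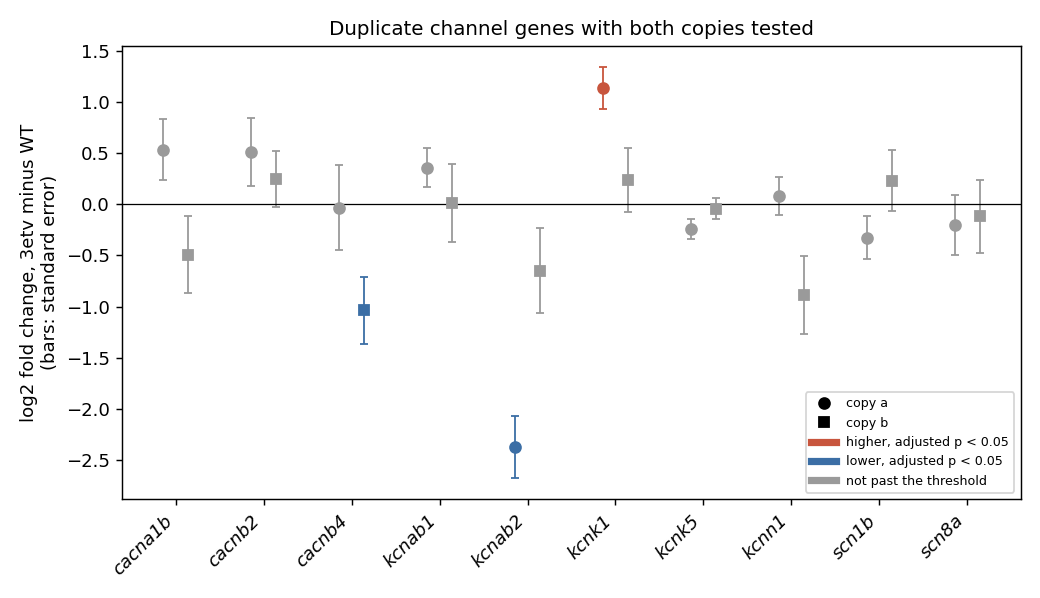
Log2 fold change (3etv minus WT) with its standard error for 10 duplicate gene pairs with both copies tested; circles are copies named a and squares copies named b, coloured by direction where the adjusted p was under 0.05. The pair cacna1ea and cacna1eb is left out because cacna1ea had no count in WT. In cacnb4, kcnab2 and kcnk1, 1 copy passed and the other did not.

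Genes that work with these channels were compared as lists. The share that differed was 50% in excitation-contraction coupling and 40% in pumps and exchangers. It was 26.5% in chloride and other cation channels and 22.7% in calcium-regulated genes, against 31.3% of all tested genes. In excitation-contraction coupling, the link from the muscle calcium channel to calcium release and contraction, 6 of 14 tested genes were lower and 1 was higher in 3etv, with a median log2 fold change of -0.49. The summed level of that list, led by its most counted genes, was 334 to 353 CPM in WT and 349 to 366 in 3etv, the other direction from the median. ryr1b, the calcium release channel that the muscle voltage sensor opens, fell by 1.83 on the log2 scale (SE 0.15, edgeR adjusted p 1.67e-06), and casq2, a calcium store protein, fell by 1.45 (SE 0.2, edgeR adjusted p 0.000162). The related ryr1a did not pass (log2 fold change -0.29, SE 0.11, edgeR adjusted p 0.069). cacna1sb was also lower on average without passing (log2 fold change -0.92, SE 0.34, edgeR adjusted p 0.053). cacnb1 was higher, by a call lost in 6 of 12 alternatives. As given above, 11 of 14 skeletal muscle markers fell, and their part in these values was not tested. Of 34 tested chloride and other cation channels 6 were higher and 3 lower (median 0.063). pkd2l1, a channel of the spinal neurons that touch the cerebrospinal fluid, rose by 3.42 on the log2 scale (SE 0.53, edgeR adjusted p 0.000329). It had 4, 2 and 1 counts in WT and 22, 26 and 13 in 3etv. pkd2l1 thus reached the filter level through 3etv alone, and its p-value is no support apart from the counts. Of 25 tested pumps and exchangers that set the ion gradients 4 were higher and 6 lower (median -0.039), including the sodium pump gene atp1a1a.4, also on the ionocyte and pronephros list, which fell by 1.52 on the log2 scale (SE 0.16, edgeR adjusted p 1.58e-05). Of 22 tested calcium-regulated kinases, phosphatases and transcription factors 3 were higher and 2 lower (median 0.034), with the lowest adjusted p for calm2a, a calmodulin gene that rose by 0.83 on the log2 scale (SE 0.066, edgeR adjusted p 1.5e-06). The transcription factor gene nfatc4 rose by more, 1.15 (SE 0.16, edgeR adjusted p 0.00013).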

How the data were processed

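The deposited table holds raw counts per Ensembl gene, with no normalization by the authors. Libraries were poly-A enriched and strand specific, per the labels. STAR, HTSeq and the build GRCz11 are named in the submitters' processing notes; versions, annotation release and strand setting are not given in the sources used here. In the header a space replaces a tab between the names of 2 3etv samples, so columns were matched to sample titles by the order of the names. The 5 summary entries were left out of library sizes; reads assigned to no gene were 52.8% to 53.6% of each library.

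Tests on these counts used edgeR 4.0.16 (R 4.3.3), with filterByExpr by group, TMM scaling, and a robust quasi-likelihood fit with genotype as the sole term, with Benjamini-Hochberg adjustment over 18533 genes and a threshold of 0.05. SE is the absolute log2 fold change over the square root of F. CPM uses TMM-scaled totals; 3 counts were 0.103 to 0.166 CPM. Alternatives used DESeq2 1.42.0, limma 3.58.1 (voom), RLE scaling, other filters, a replicate block and fits without each embryo. The fits were tested on simulated counts.

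Named genes were cacna1ea, cacnb4b, nearly absent members, called members with at least 1 log2 unit, the most counted and the lowest-p called member of each family, and a list of muscle and heart channels. Members and lists were chosen with earlier results of these data known. Symbols in capitals (9 more channel entries) were outside the rule. No pair of libraries in a group agreed within sampling noise (lowest chi-square per degree of freedom 3.43). Nothing says whether embryos came from separate clutches. The p-values set the genotype difference against the spread between these embryos, and may not cover the spread between clutches or lines. Gene order came from RefSeq GRCz12tu, in which 75 of 77 tested members were placed.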

Additional observations from a re-analysis of the deposited data

How the results depend on the processing

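Of the 21 called members, 13 kept their call in every alternative that tested them and 8 lost it in at least 1. Against 21 called members (5 calcium, 15 potassium, 1 sodium), requiring a mean of at least 50 counts left 25 members to test and gave 6 calls (1 calcium, 5 potassium, 0 of the 1 sodium channel tested). An adjusted p under 0.01 gave 13 (2 calcium) and 3460 of all genes, against 5801. DESeq2 gave 3 calcium calls, 2 of them shared with the main fit, and without a low-count filter 2 sodium channels were called. Fits without 1 embryo gave 15 to 22 member calls, 2 to 8 calcium, 12 to 16 potassium, 1 to 1 sodium and 4247 to 5721 of all genes; the lowest calcium count, 2, was without WT embryo 3 or 3etv embryo 3 and the highest, 8, without WT embryo 1.

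With the replicate number as a block, 18 members were called (3 calcium, 2 of these shared with the main fit), and 4524 of all genes. Same-numbered embryos are different animals and were not treated as pairs in the main fit. Their deviations correlated at -0.132 to -0.0302. Members nearly absent in one group numbered 1, not 2, with at most 1 count and at least 10, and 1 with at most 3 counts and at least 30.

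The uncalled genes cacna1ha and kcnn1a changed sign without 3etv embryo 1; over the fits without 1 embryo their log2 fold changes ran from -0.0145 to 0.164 and from -0.0882 to 0.18. Where an alternative changed a call, the cause was not tested. The 77 tested members had a median SE of 0.31 log2 units, and the other 58 had too few counts to be tested.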

Other observations

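Channel entries whose symbols the table writes in capitals fall outside the symbol rule and belong in no comparison above. Of 9 such entries 4 were tested, and none differed in edgeR at an adjusted p under 0.05; the lowest adjusted p, 0.17, belonged to KCNJ6, an inward rectifier gene with a log2 fold change of 0.83. KCNN2, a relative of kcnn3, had a log2 fold change of 0.0044 (edgeR adjusted p 0.99).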
